A study of Schizosaccharomyces pombe with 4 samples.

Results

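The response of fission yeast chromatin to tethering of the histone methyltransferase Clr4 was read in wild-type (wt) cells by comparing wt ON with wt OFF, 2 of the 4 arrays of a study of Schizosaccharomyces pombe. Both wt arrays were chosen by their labels and have the genotype H3T7 cdc25-22. In wt ON cells, TetR-Clr4 was made from a promoter that thiamine represses, in thiamine-free minimal medium, with 20 generations of preculture, in cells that carry tetO-ade6+. The wt OFF cells went through the same culture with 5 µg/ml thiamine and 2.5 µg/ml tetracycline in the medium. Each group is 1 array, so no difference below has a replicate check and no p-value is given. Errors are SDs over the probes of a gene or region, or over the genes of a list. The other 2 arrays, clr3-CDx2 ON and clr3-CDx2 OFF, come from cells of the same background that also carry clr3-CDx2. They share no array with the wt pair and were read as a second pair. The labels used here do not say what CDx2 changes or where tetO-ade6+ lies.

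All 4 cultures were grown at 26 °C and shifted to 36 °C for 4 h, which holds cdc25-22 cells at the G2/M boundary, and 1 µM β-estradiol for 2 h then let Cre recombinase exchange the HA tag of histone H3 for T7. H3-T7 therefore marks H3 made after the exchange. Its chromatin was immunoprecipitated and labelled with Cy5, DNA of the whole-cell extract, called input here, carried Cy3, and both were hybridised to 60-mers spaced about 300 bp apart. A level is log2 of Cy5 over Cy3 with the array median at 0, and a difference is the level in ON minus the level in OFF. Medium, tetracycline and tether changed together between wt ON and wt OFF and cannot be told apart. Fewer nucleosomes and less new H3 per nucleosome cannot be told apart either, because no array measured total H3.

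As background, Clr4 methylates lysine 9 of H3, the mark on which fission yeast heterochromatin is built at centromeres, telomeres, the mating-type region and rDNA. TetR fused to Clr4 brings the enzyme to tet operators and builds heterochromatin there. Outside S phase, new H3 enters chromatin mainly where nucleosomes are lost and replaced, which is common over highly transcribed genes and rare in heterochromatin.

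Both wt arrays gave strong signal on 41020 probes: the median unprocessed spot signal was 4447 units in wt ON and 6040 units in wt OFF for Cy5, and 7755 units in wt ON and 7492 units in wt OFF for Cy3. No spot was saturated. The spread of the log ratio was wider in wt ON (SD 0.554 over probes) than in wt OFF (SD 0.489), and the arrays correlated with r = 0.73 over probes, which share the array design and their base composition.

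H3-T7 was at least 1.5-fold higher in wt ON at 110 of 4611 protein-coding genes (2.39% of genes measured) and at least 1.5-fold lower at 76 (1.65%). The higher genes held 9 of 21 genes of glycolysis and ethanol fermentation, phosphate uptake genes, the plasma membrane proton pump and the fatty acid desaturase. The lower genes held a subtelomeric group on I and II and others in the chromosome arms. Of the 110 higher genes, 97 lay on chromosome III or at least 150 kb from an end of I or II, against 53 of the 76 lower genes. These shares, 88.2% and 69.7%, are both below the 96.8% of all measured genes that lie there. Each gene value averages the probes centred within the gene, and genes with under 3 such probes were not measured. The threshold is not a natural break: str3 (0.58) and aly2 (0.58) lay just outside it and pil1 (0.59) and rpl6 (0.59) just inside, while on the lower side Tf2-8 (-0.58) lay just outside and trs130 (-0.59) just inside.

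Among the 20 most positive genes (80% or more of the probes agreeing in sign), 19 stood above the array median in wt ON and 15 stood below it in wt OFF. Among the 20 most negative, all 20 stood below the median in wt ON and 8 stood below it in wt OFF. Choosing the largest differences partly fixes these counts, and wt ON had the wider spread. The probe values of the arrays did not overlap at 17 of the 20 higher and 18 of the 20 lower genes, which the choice of the largest differences largely fixes, and at 9.0% of all measured genes.

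**Figure D1:**
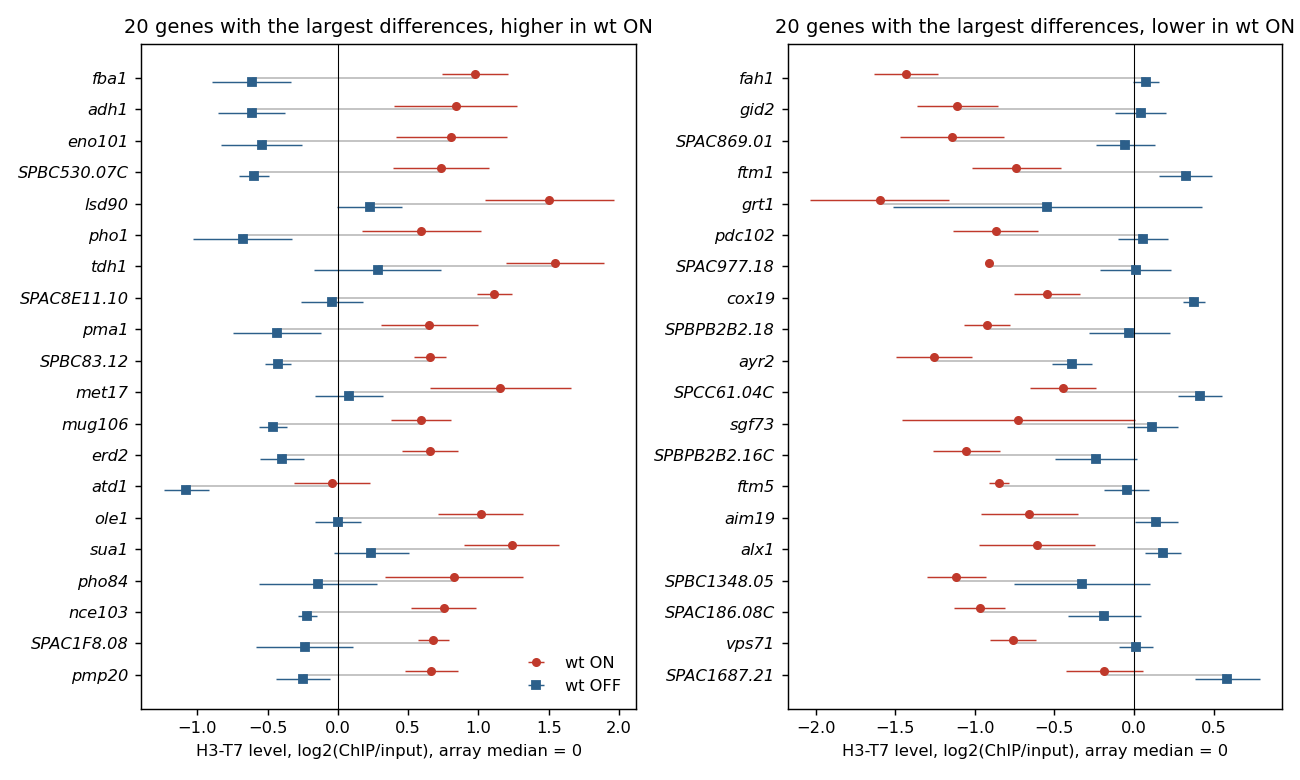
H3-T7 level (log2 of ChIP over input, array median at 0) of the 20 most positive (left) and 20 most negative (right) gene differences, in wt ON (red circles) and wt OFF (blue squares), 1 array each. Points are means and bars are SDs over the probes of the gene. fba1 has the largest positive difference (1.59) and fah1 the largest negative one (-1.51).

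The gene with the largest difference was fba1 (SPBC19C2.07, chrII:1688321-1689599 in ASM294v3), which encodes fructose-bisphosphate aldolase of glycolysis. Its level was 0.97 in wt ON and -0.61 in wt OFF, a difference of 1.59 (SD 0.29 over 4 probes) or 3.0-fold. The probes of fba1 ran from 0.77 upwards in wt ON and from -0.92 to -0.25 in wt OFF, so the arrays did not overlap. Next came adh1 (SPCC13B11.01, chrIII:1591292-1592889), the main alcohol dehydrogenase, at 0.84 in wt ON and -0.61 in wt OFF (difference 1.45, SD 0.44, 5 probes). The enolase gene eno101 stood at 0.81 in wt ON and -0.54 in wt OFF (1.35, SD 0.41, 5 probes). Each difference has a ChIP part (Cy5) and an input part (Cy3), the change in log2 signal of that channel, and a negative Cy3 part raises the ratio. At eno101 these parts were close in size (Cy5 0.72, Cy3 -0.61). At fba1 and adh1 the ChIP signal carried most of the difference, with Cy5 parts of 1.29 and 1.14.

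Enzymes further along glycolysis shared the direction. The glyceraldehyde-3-phosphate dehydrogenase genes tdh1 (1.55 in wt ON, 0.28 in wt OFF) and gpd3 (1.65 in wt ON, 0.75 in wt OFF) differed by 1.26 and 0.90. Phosphoglycerate kinase (pgk1) stood at 1.83 in wt ON and 0.99 in wt OFF, among the highest levels of the list on both arrays. Pyruvate kinase (pyk1) stood at 1.04 in wt ON and 0.17 in wt OFF. Genes for the steps before aldolase differed less: 0.30 at hxk1 and 0.50 at hxk2 (hexokinases), 0.56 at pgi1 (glucose-6-phosphate isomerase) and 0.48 at pfk1 (phosphofructokinase). Of the later steps, tpi1 (0.57) and gpm1 (0.64) also differed less. The gluconeogenic fbp1, fructose-bisphosphatase, stood at 0.21 in wt ON and 0.19 in wt OFF, a difference of 0.02. The mitochondrial alcohol dehydrogenase gene adh4 differed by -0.03. Across the list, 19 of 21 genes lay above 0, 9 passed 1.5-fold upwards and 1 downwards, with a median of 0.57 (SD 0.56 over genes), while over all genes the median was -0.00 and 49.6% lay above 0. The median Cy5 part of the list was 0.33 and its median Cy3 part -0.30, so input carried about as much as ChIP. At pyk1 (Cy5 0.29, Cy3 -0.56) and pdc101 (Cy5 -0.01, Cy3 -0.54) the input part was the larger.

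The exception was pdc102, a pyruvate decarboxylase gene near the right end of chromosome I, at -0.87 in wt ON and 0.06 in wt OFF (difference -0.93, SD 0.26, 5 probes). The other genes annotated as pyruvate decarboxylases were higher in wt ON, by 0.54 at pdc101, 0.58 at pdc201 and 0.37 at pdc202. The gene next to pdc102, SPAC186.08C (L-lactate dehydrogenase), was also lower, at -0.97 in wt ON and -0.19 in wt OFF. At the minor enolase gene eno102, 58 kb from an end of II, the level was far below the median on both arrays, at -0.70 in wt ON and -1.26 in wt OFF.

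Base composition moved with these differences. Glycolysis genes are GC-rich (median 43.9% GC), and 19 of the 21 belong to the richest of 5 equal classes of all genes by GC content. The 922 genes of that class had a median difference of 0.17 and held 67 of the 110 higher genes and 3 of the 76 lower ones. The 923 genes of the poorest class had a median of -0.09 and held 9 higher and 31 lower genes. When the median of genes of like GC content (20 equal classes) was subtracted, the glycolysis median was 0.28 with 19 of 21 genes still above 0 and 6 past 1.5-fold upwards, and fba1 stood at 1.28 and adh1 at 1.15. Of 136 ribosomal protein genes only 52 were measured, and the other 84 had fewer than 3 probes. The measured ones, which are as GC-rich (median 42.7%), had a median of 0.19 before and -0.02 after that subtraction. The richest of the 5 classes also held 15 of the 20 most positive genes and 7 of 8 translation elongation genes. The poorest held all 9 measured Tf2 retrotransposons and 12 of 15 wtf genes.

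**Figure D2:**
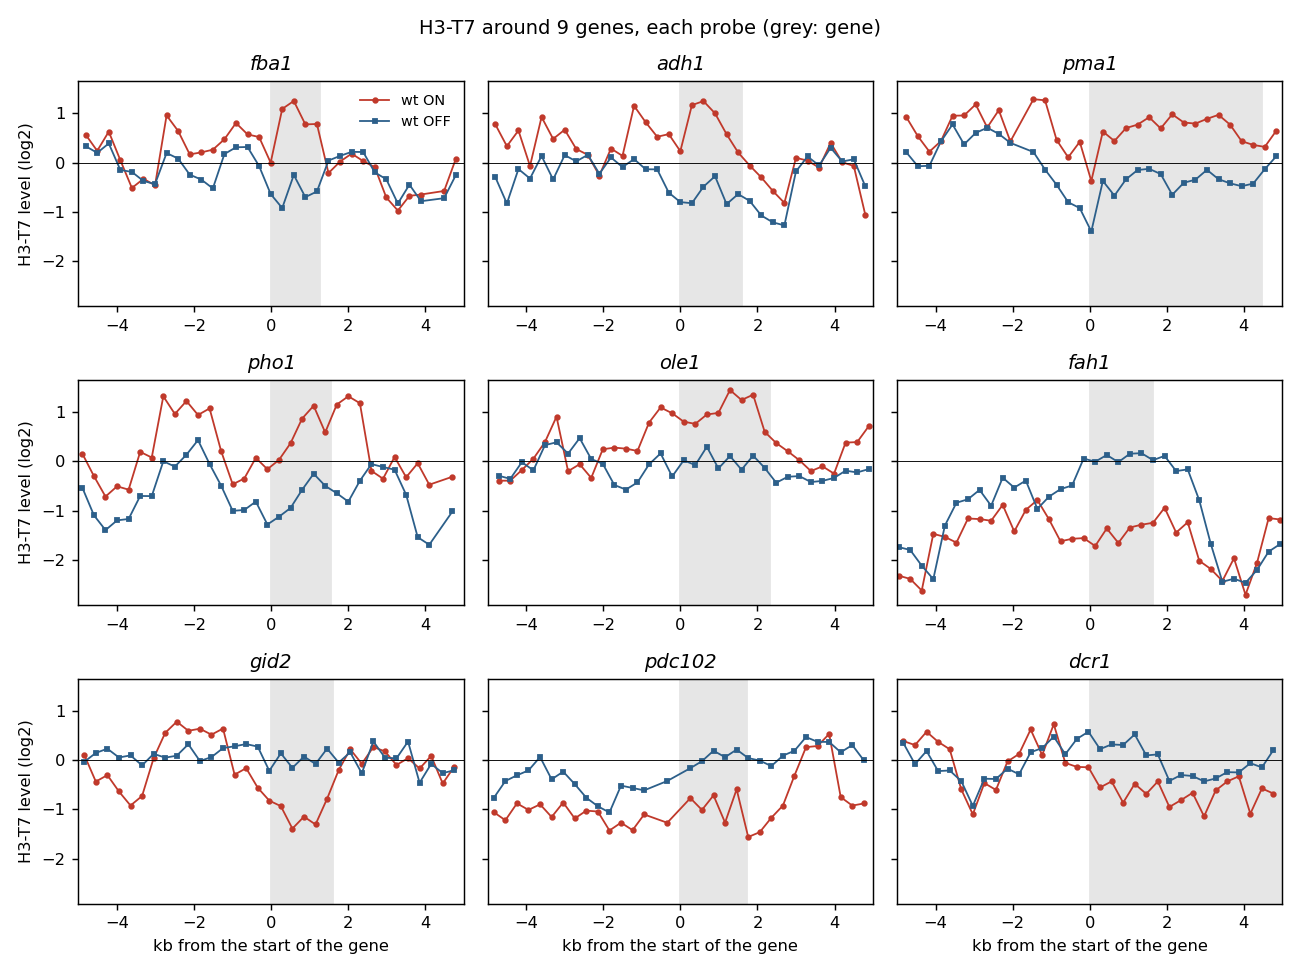
H3-T7 level of each probe (log2 of ChIP over input, vertical axis) within 5 kb either side of the annotated start of 9 genes (horizontal axis, kb along the gene's strand), in wt ON (red circles) and wt OFF (blue squares), 1 array each. Grey marks the gene. At fba1 the separation is widest within the gene, and wt ON also lies above wt OFF at the neighbouring probes before the start; at pma1, pho1 and pdc102 it spans several kb.

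Along glycolysis genes the difference in the ratio of ChIP to input was largest in the early and middle gene body. With each body cut into 3 equal segments, the mean difference was 0.66 (SD 0.63 over 40 probes) in the one nearest the start and 0.70 (SD 0.52, 40 probes) in the middle one. In the segment nearest the end it was 0.51 (SD 0.59, 42 probes). It was 0.55 in the 300 bp before the start and 0.28 in the 300 bp after the end. Further downstream, between 300 and 900 bp, it was 0.13 (SD 0.42, 42 probes). Heat shock genes also had their highest value in the middle segment (0.38), with 0.30 and 0.25 in the segments nearest the start and the end, 0.21 before the start and 0.00 just after the end. Neighbouring probes share DNA fragments of about 1000 bp, which limits the resolution of such profiles. The input had its own profile. Its difference along glycolysis genes was -0.27 before the start, -0.31, -0.38 and -0.14 over the 3 segments, and 0.11 just after the end. In heat shock genes the input difference was also most negative in the middle segment (-0.24). The ratio was thus highest where the input fell most. The ChIP signal was not profiled alone, so the peak cannot be assigned to H3-T7.

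The promoters of the genes with the largest differences were read from the genome to show what sequence precedes them. A TATA box, TATAAA on the gene's strand, lies in the 60 bases before the annotated start of 8 of the 20 named higher genes and 1 of the 20 named lower genes, against 6.63% of all 5112 promoters. Of the 21 glycolysis genes 8 have it there, and of 136 ribosomal protein genes 1 has it. The following sequences are the 250 bases before the start on the gene's strand, from the RefSeq genome ASM294v3, with TATAAA, heat shock elements (the units GAA and TTC alternating, 3 in a row, 2 bases apart, on either strand, with overlapping matches joined) and Pho7 sites in capitals. In adh1 (chrIII:1591042-1591291, plus strand) and tdh1 (chrII:2807345-2807594, plus strand) TATAAA begins 41 and 38 bases before the start. In met17 (chrII:465130-465379, plus strand) it begins 33 bases before the start. The promoter of fba1 (chrII:1688071-1688320, plus strand) has no TATAAA in this window.
adh1: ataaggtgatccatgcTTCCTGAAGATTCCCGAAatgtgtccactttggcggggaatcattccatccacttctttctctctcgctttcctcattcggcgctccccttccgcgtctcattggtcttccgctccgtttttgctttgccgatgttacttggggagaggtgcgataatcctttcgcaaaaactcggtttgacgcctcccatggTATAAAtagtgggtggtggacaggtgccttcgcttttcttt
tdh1: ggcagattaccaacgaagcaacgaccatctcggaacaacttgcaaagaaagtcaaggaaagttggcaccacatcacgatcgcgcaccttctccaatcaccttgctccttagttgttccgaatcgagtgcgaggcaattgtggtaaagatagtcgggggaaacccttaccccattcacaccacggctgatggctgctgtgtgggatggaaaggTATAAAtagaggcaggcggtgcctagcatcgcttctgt
met17: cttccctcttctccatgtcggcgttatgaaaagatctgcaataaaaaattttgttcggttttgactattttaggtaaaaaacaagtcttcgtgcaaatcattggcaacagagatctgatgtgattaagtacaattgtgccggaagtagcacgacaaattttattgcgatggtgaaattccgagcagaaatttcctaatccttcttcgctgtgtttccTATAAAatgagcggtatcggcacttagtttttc
fba1: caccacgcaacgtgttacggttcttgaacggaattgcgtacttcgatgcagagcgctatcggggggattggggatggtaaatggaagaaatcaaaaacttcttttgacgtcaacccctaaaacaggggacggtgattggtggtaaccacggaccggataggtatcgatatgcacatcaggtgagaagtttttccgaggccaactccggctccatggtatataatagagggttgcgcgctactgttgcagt
A match is a run of letters and not a measured binding site.

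Phosphate uptake was another group with large differences. The acid phosphatase gene pho1 stood at 0.59 in wt ON and -0.68 in wt OFF, a difference of 1.27 (SD 0.15 over 5 probes). The phosphate transporter gene pho84 stood at 0.83 in wt ON and -0.14 in wt OFF (0.97, SD 0.26, 7 probes). These neighbours lie under an 8.16 kb domain on chromosome II with ecl3, in which H3-T7 averaged 0.40 in wt ON and -0.60 in wt OFF, nearly all of it in the ChIP signal (Cy5 part 0.98, Cy3 part 0.01). A further domain of 5.16 kb with no annotated protein-coding gene lies beside it (0.00 in wt ON, -0.82 in wt OFF). Domains are stretches of 5 or more probes along which the median of 5 neighbouring probes stayed past 1.5-fold.

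The remaining phosphate genes were less uniform. A second phosphate transporter gene, pho842, stood at 0.60 in wt ON and -0.36 in wt OFF, with a wide spread over its 9 probes (difference 0.96, SD 0.72). The glycerophosphodiester transporter gene tgp1 was at 0.70 in wt ON and 0.34 in wt OFF (0.36, SD 0.30). The gene of the transcription factor Pho7, which activates pho1 and pho84, was at -0.35 in wt ON and -0.21 in wt OFF. The gene of the kinase Csk1 was at 0.56 in wt ON and 0.25 in wt OFF. Of the 6 phosphate genes 5 lay above 0 and 3 were at least 1.5-fold higher, with a median of 0.66 that was 0.64 after subtraction by GC class.

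Pho7 binds a site that the letters TCGGANNTTNAA, TCGGTNNTTNAA, TCGCANNTTNAA and TCGCTNNTTNAA describe. On either strand these occur in 1.94% of promoters (99 of 5112). Of the 6 phosphate genes, pho1, pho842 and tgp1 hold such a match in their promoters. The promoter of eno101 also holds 2, so matches are not limited to phosphate genes. The promoter of pho1 (chrII:4447256-4447505, plus strand) has 2 matches, which begin 187 and 155 bases before the start.
pho1: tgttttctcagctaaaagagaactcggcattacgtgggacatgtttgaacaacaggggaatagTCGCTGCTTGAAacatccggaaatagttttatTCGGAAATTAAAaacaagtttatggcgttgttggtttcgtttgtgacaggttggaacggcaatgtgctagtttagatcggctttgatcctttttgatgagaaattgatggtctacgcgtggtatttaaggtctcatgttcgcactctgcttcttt
No other motif of those searched occurs in it.

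Genes of the cell surface and of lipid synthesis followed. The gene of the plasma membrane proton pump, pma1, was covered by 15 probes, all higher in wt ON, with a level of 0.65 in wt ON and -0.43 in wt OFF (1.08, SD 0.20). With SPAC1071.09C, pma1 lies under a domain of 6.36 kb. The fatty acid desaturase gene ole1 stood at 1.02 in wt ON and 0.00 in wt OFF, with nearly equal input (Cy3 part 0.01). At lsd90, in contrast, the Cy3 part was -0.84 and the Cy5 part 0.42, and the level was 1.5 in wt ON and 0.23 in wt OFF. Of the other genes of lipid and sterol synthesis, fatty acid synthase genes fas1 and fas2 differed by 0.30 and 0.44 and the list median was 0.29 (9 of 12 above 0). Transporters other than pma1 differed less: the hexose transporter genes ght1 to ght8 differed by -0.47 (ght3) to 0.37 (ght2), and the paralogue pma2 by 0.19.

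Amino acid, iron and stress genes added further members. The iron and copper list had a median of 0.30 (10 of 13 above 0) and the stress list one of 0.22 (10 of 11 above 0). Of 10 genes of sulfate assimilation and methionine synthesis, sua1 (sulfate adenylyltransferase; 1.24 in wt ON, 0.24 in wt OFF) and met17 (homocysteine synthase; 1.15 in wt ON, 0.08 in wt OFF) were past 1.5-fold, while the list median was 0.08. The divergent pair of iron uptake genes fio1 and fip1 differed by 0.62 each. The siderophore transporter genes str1, str2 and str3 differed by 0.52, 0.30 and 0.58. The iron regulator gene fep1 stood at 0.02 in wt ON and 0.11 in wt OFF. The aldehyde dehydrogenase gene atd1 had the lowest level in wt OFF of the 20 named higher genes, at -0.04 in wt ON and -1.08 in wt OFF (1.04, SD 0.23, 7 probes), and lies under a 5.46 kb domain with rad26. In the stress list, tps1 (trehalose-phosphate synthase) and gpd1 (glycerol-3-phosphate dehydrogenase) differed by 0.50 and 0.66, whereas the catalase gene ctt1 was at 0.56 in wt ON and 0.77 in wt OFF.

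Of 18 measured genes for heat shock proteins and chaperones, 17 lay above 0, with a median of 0.27 (SD 0.25) and 3 at least 1.5-fold higher. The median Cy5 part was 0.12 and the median Cy3 part -0.14, so input carried as much as ChIP. Of the 18 genes, 11 belong to the GC-richest of the 5 classes, whose 922 genes had a median of 0.17. The Hsp70 genes ssa1 (1.70 in wt ON, 1.08 in wt OFF) and ssa2 (1.78 in wt ON, 0.96 in wt OFF) were already far above the array median in wt OFF. The heat shock transcription factor gene hsf1 stood at -0.25 in wt ON and 0.01 in wt OFF. The promoters of ssa1, ssa2 and adh1 are among the 21 in the genome (0.411%) with a match to the heat shock element. Replication-dependent histone genes were alike: hht1, hht2, hht3, hhf1, hhf2, hta1 and hta2 differed by 0.30 to 0.43, and htb1, the only H2B gene, by 0.89. The H2A.Z gene pht1 was at -0.49 in wt ON and -0.31 in wt OFF. The labels do not say which H3 gene carries the tag cassette.

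**Figure D3:**
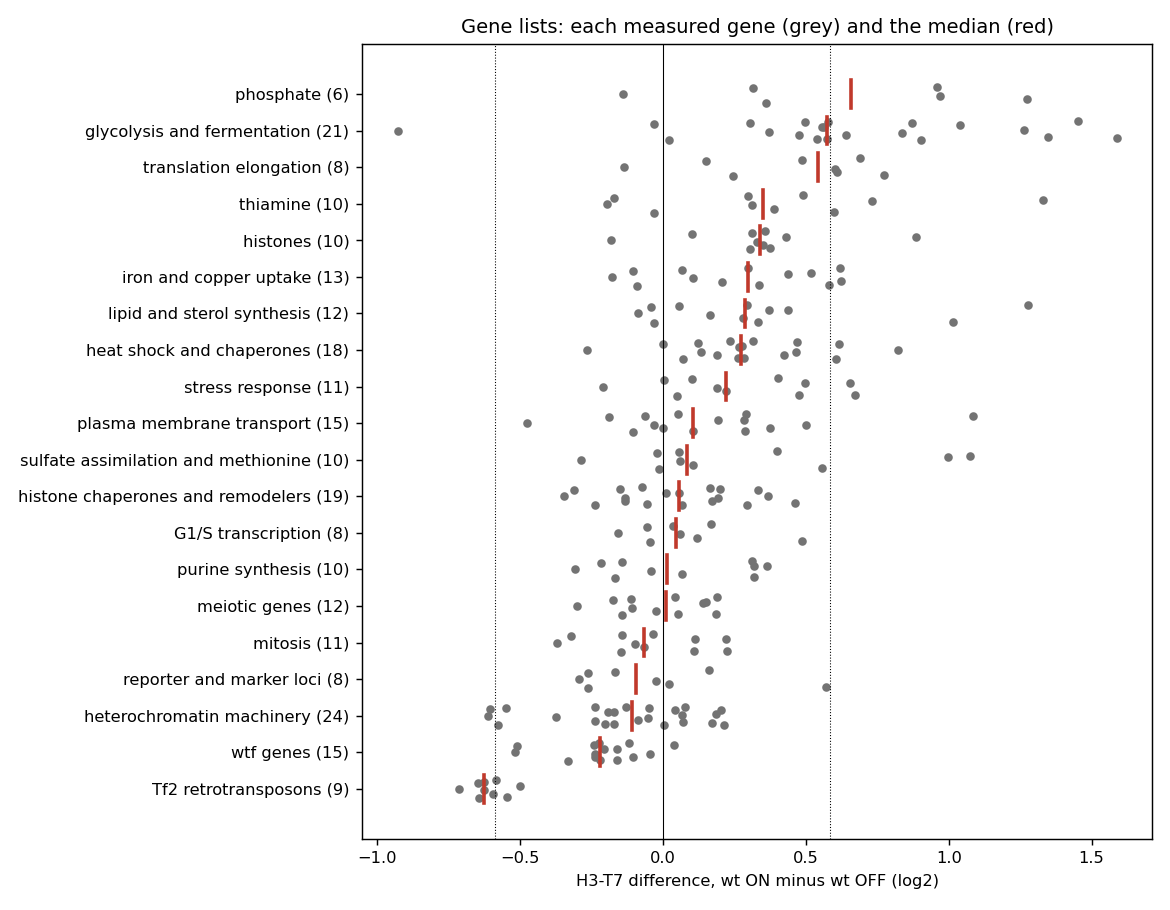
Difference in H3-T7 between wt ON and wt OFF (horizontal axis, log2) for each measured gene (grey points) of the named lists, with the median of each list in red and the number of measured genes in brackets. Dotted lines mark 1.5-fold. The phosphate list has a median of 0.66 and Tf2 elements one of -0.63.

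The input signal carried much of the difference in several other lists. Of 8 genes of translation elongation and initiation, 7 lay above 0 and 4 were at least 1.5-fold higher, with a median of 0.54, a median Cy5 part of 0.17 and a median of 0.15 on probes whose names do not end in f or m. The EF-1-alpha genes tef101, tef102 and tef103 are near-identical copies, so their probes may read each other. They differed by 0.60 to 0.78, with Cy3 parts of -0.38 to -0.49 and Cy5 parts of 0.18 to 0.34. For 10 thiamine genes the median difference was 0.35, with a median Cy5 part of -0.11 and Cy3 part of -0.30. Among them nmt1, a gene whose promoter thiamine represses, stood at 0.79 in wt ON and 0.30 in wt OFF (SD of the difference 0.44 over 4 probes). Its ChIP signal was lower in wt ON (Cy5 part -0.30), and its input fell further (Cy3 part -0.77). At thi2 both channels were lower in wt ON by about the same amount (Cy5 part -1.01, Cy3 part -0.96) and the level was 0.04 in wt ON and 0.06 in wt OFF. SPBC530.07C, a TENA/THI family gene, differed mainly in the ChIP signal (0.73 in wt ON, -0.60 in wt OFF; Cy5 part 1.14, Cy3 part -0.17). At Tf2 retrotransposons, whose copies are near-identical, all 9 measured elements were lower in wt ON (median difference -0.63), with a Cy3 part of 0.48 against a Cy5 part of -0.14. At the wtf meiotic driver genes, 14 of 15 were below 0, with a median of -0.22 made of a Cy3 part of 0.18 and a Cy5 part of -0.04.

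Over the 110 higher genes the median level was 0.76 in wt ON and -0.01 in wt OFF, with median Cy5 and Cy3 parts of 0.52 and -0.19. The Cy5 part was the larger for 94 of them, and 36 passed 1.5-fold on Cy5 alone, as did 1.24% of all genes upwards. Over the 76 lower genes the median level was -0.60 in wt ON and 0.10 in wt OFF, with Cy5 and Cy3 parts of -0.53 and 0.17, and 27 passed on Cy5 alone, as did 0.867% of all genes downwards. The Cy3 part ran against the difference at 95 of the 110 higher and 74 of the 76 lower genes, which calling genes by the ratio partly fixes, and at 67.4% of all measured genes.

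**Figure D4:**
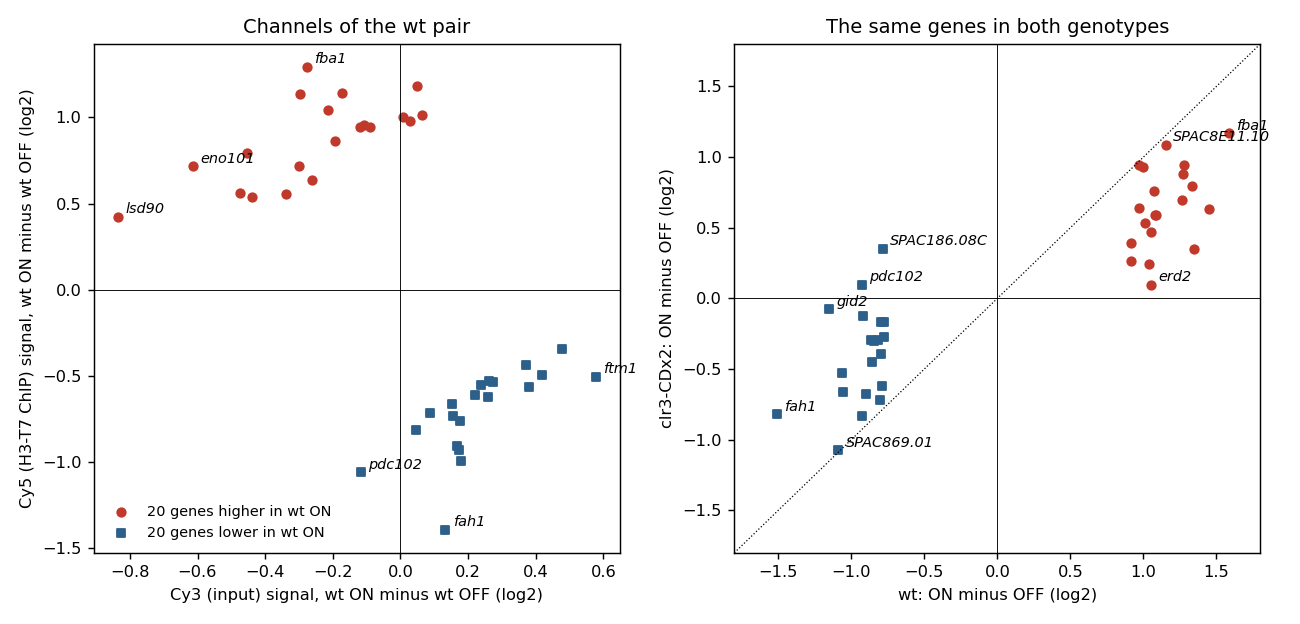
Left, change of the ChIP signal (Cy5, vertical) against change of the input signal (Cy3, horizontal) between wt ON and wt OFF, in log2, for the 20 most positive (red circles) and 20 most negative (blue squares) genes. Right, the same genes with the difference in wt (horizontal) against that in clr3-CDx2 (vertical); the dotted line marks equality. All 20 higher genes and 18 of 20 lower genes lie on the same side of 0 in both genotypes. Of all 4611 measured genes, 2410 lie above 0 in clr3-CDx2.

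The lower genes near chromosome ends formed a zone. Between 10 and 50 kb from the ends of I and II, 28 of 29 measured genes were below 0 and 16 were at least 1.5-fold lower, with a median difference of -0.64 (SD 0.38); 25 further genes there had fewer than 3 probes. The median Cy5 part of the 29 genes was -0.44 and their median Cy3 part 0.17. Over all probes the input part was relatively larger. At 10 to 20, 20 to 30, 30 to 40 and 40 to 50 kb the Cy5 parts were -0.19, -0.20, -0.33 and -0.24. The Cy3 parts there were 0.25, 0.16, 0.24 and 0.23. Split by end and in steps of 10 kb, 12 of 14 stretches with probes were lower in wt ON. The exceptions were at the left end of I, at 10 to 20 kb (0.06) and 20 to 30 kb (0.23). The most negative differences were 30 to 40 kb from the left end of I (-1.27 in wt ON, -0.42 in wt OFF, difference -0.85, 33 probes) and 10 to 20 kb from the left end of II (-1.24 in wt ON, -0.41 in wt OFF, difference -0.83, 15 probes). In this zone 208 of 386 probes have names ending in f or m, which the files do not explain. On the remaining probes, all 13 genes still measured were below 0, with a median of -0.52.

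Between 50 and 75 kb the direction was mixed: of 26 measured genes 14 lay above 0 and 12 below, with 4 at least 1.5-fold higher and 5 lower, and the means of the 4 ends ran from -0.31 at the right end of I to 0.28 at the left end of I. Between 75 and 150 kb from the same ends, all 8 stretches (2 at each end) were higher in wt ON, by 0.15 to 0.65, and 63 of 88 genes lay above 0 with 8 at least 1.5-fold higher. The largest was 75 to 100 kb from the right end of II, at -0.03 in wt ON and -0.67 in wt OFF, which holds pho84 and pho1. Within the outermost 10 kb the ends differed from one another, with differences of 0.62 at the left end of I, 0.06 at its right end and -0.12 at the left end of II. Probes of the pNSU clones, which the array carries as sequences of their own, were higher by 0.60 (-0.49 in wt ON, -1.09 in wt OFF, 123 probes). All 123 have names ending in f or m. The array has no probes in the last 30 kb of the assembly at the right end of II. Distances from the ends rest on a placement made for the rest of each arm and were not checked at the ends themselves.

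**Figure D5:**
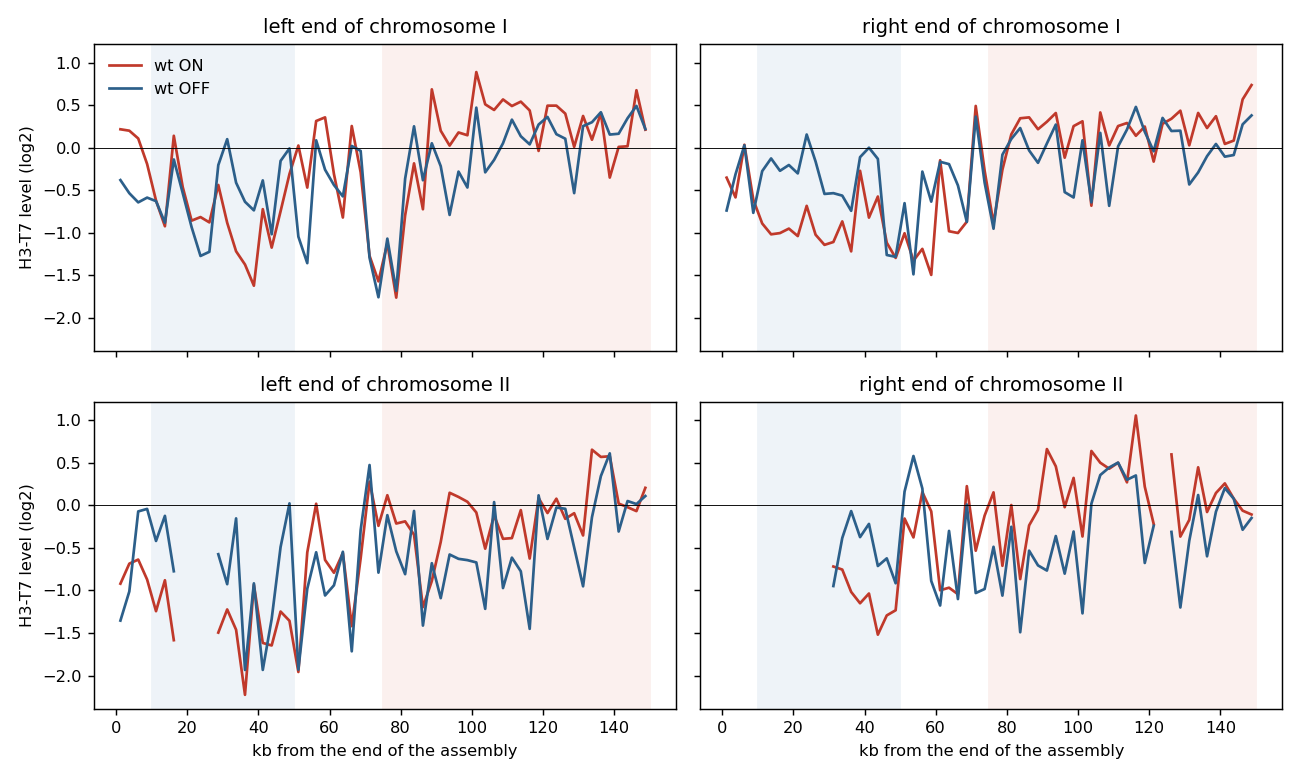
Mean H3-T7 level in steps of 2.5 kb (vertical axis, log2 of ChIP over input) by distance from each end of chromosomes I and II (horizontal axis, kb), in wt ON (red) and wt OFF (blue), 1 array each; gaps have fewer than 3 probes. The blue band marks 10 to 50 kb, where wt ON lies below wt OFF in 12 of 14 stretches, and the pink band 75 to 150 kb, where it lies above in 8 of 8.

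Of the 20 named lower genes, 12 lay within 75 kb of an end of I or II, led by fah1 (acetamidase), at -1.43 in wt ON and 0.08 in wt OFF (difference -1.51, SD 0.15 over 6 probes). The level of fah1 was 2.84-fold lower in wt ON and the probes did not overlap. Its annotation overlaps that of grt1, a transcription factor gene, which shares 6 of its 13 probes. On the other 7 probes grt1 stood at -1.74 in wt ON and -1.08 in wt OFF (-0.67, SD 0.66). The ftm genes are a family of subtelomeric membrane protein genes: ftm1 stood at -0.74 in wt ON and 0.32 in wt OFF, and ftm5 at -0.85 in wt ON and -0.05 in wt OFF. Their input was higher in wt ON (Cy3 parts 0.58 and 0.48), at least as large as the Cy5 parts (-0.51 and -0.34), and related copies may hybridise to the same probes. At SPAC869.01 (amidase; -1.14 in wt ON, -0.05 in wt OFF) and ayr2 (dehydrogenase; -1.26 in wt ON, -0.39 in wt OFF) the difference was mainly in the ChIP signal (Cy5 parts -0.93 and -0.73).

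The other 8 lay far from the ends. The strongest was gid2, which encodes a ubiquitin ligase subunit, at -1.11 in wt ON and 0.04 in wt OFF (-1.15, SD 0.10 over 5 probes). Between gid2 and vps71 lies rpl8, which went the other way (0.67 in wt ON, 0.13 in wt OFF), whereas vps71, for a subunit of the Swr1 remodeler, stood at -0.76 in wt ON and 0.01 in wt OFF. The other interior genes were cox19 (copper chaperone; difference -0.92), SPCC61.04C (-0.86), sgf73 (SAGA subunit; -0.84 with an SD of 0.63), aim19 (-0.80), alx1 (-0.79) and SPAC1687.21 (-0.77). Each of these 8 stood near or above the array median in wt OFF, between 0.01 (vps71) and 0.59 (SPAC1687.21).

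Of the 24 genes of the heterochromatin machinery, 15 lay below 0 and 2 were at least 1.5-fold lower, both of them RNA interference genes. Dicer (dcr1) stood at -0.63 in wt ON and -0.03 in wt OFF (-0.60, SD 0.30 over 18 probes), and hrr1, an RNA helicase, at -0.41 in wt ON and 0.20 in wt OFF (-0.61, SD 0.25, 16 probes). Below the threshold, mit1 (SHREC remodeler) differed by -0.55 and chp2 by -0.57 with a wide spread (SD 0.87 over 4 probes). Argonaute (ago1), the RNA polymerase gene rdp1 and the endogenous clr4 gene differed by 0.07, 0.07 and 0.08, within their probe spreads. In the list of 19 histone chaperone and remodeler genes none passed 1.5-fold, with a range of -0.35 (pcf2) to 0.46 (hip4).

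The lists for other functions stayed near the median of all genes. The medians were 0.01 for 10 purine synthesis genes and 0.01 for 12 meiotic genes. They were 0.05 for 8 genes of G1/S transcription and -0.06 for 11 mitosis genes, none of them past 1.5-fold. The marker loci ade6 and ura4 stood at -0.07 and 0.11 in wt ON, against 0.09 and 0.37 in wt OFF, and all 4 probes of ura4 were lower in wt ON. The 20 kb either side of ade6 averaged -0.15 (SD 0.36, 139 probes) and those either side of ura4 -0.12 (SD 0.40, 132 probes).

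Centromeres were low on both arrays, with means of -1.27 in wt ON and -1.60 in wt OFF (352 probes), a difference of 0.41 at centromere I, 0.21 at II and 0.37 at III. Input was higher there in wt ON (Cy3 part 0.23), so the ChIP signal alone differed by more (Cy5 part 0.55). The ends of chromosome III beside the rDNA averaged -0.80 in wt ON and -1.94 in wt OFF on the left (65 probes), and -0.83 in wt ON and -1.90 in wt OFF on the right (29 probes), with every probe higher in wt ON. All of these probes have names ending in f or m, and the ChIP signal alone differed by less (Cy5 parts 0.72 on the left and 0.69 on the right). The difference at all centromeres was 0.34, and it was 0.13 with normexp background correction and 0.21 on probes without the suffix. The mating-type probes that the array carries as a contig of their own averaged -0.14 in wt ON and -0.47 in wt OFF (109 probes). At 247 probes around tRNA genes outside centromeres the means were -0.39 in wt ON and -0.42 in wt OFF. Mitochondrial probes, whose DNA carries no histones, stood at -4.72 in wt ON and -4.65 in wt OFF.

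In all, 158 domains were higher in wt ON and 58 lower. Their median length was 1.86 kb in both directions, the longest were 11.8 kb (higher) and 9.66 kb (lower), and they covered 366 kb and 135 kb of the genome. All 36 and 27 probes of these longest domains have names ending in f or m. With lower domains ranked by summed difference, ranks 1, 7 and 8 also hold only such probes. Among the higher domains 24 hold no annotated protein-coding gene, 7 of them within 30 kb of the ends of chromosome III. Of the 10 strongest lower domains 8 lay within 75 kb of an end of I or II, and the other 2 covered trs130 (TRAPP subunit; -1.02 in wt ON, -0.06 in wt OFF over 10 probes) and vps1301 (lipid transfer protein; -1.03 in wt ON, -0.03 in wt OFF over 9 probes).

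The clr3-CDx2 pair gave a second reading of the same change of tether and medium. There, 71 genes (1.54%) passed 1.5-fold upwards and 36 (0.781%) downwards. Of the 110 genes higher in wt, 106 lay above 0 in clr3-CDx2 and 39 passed 1.5-fold, with a median of 0.47. Of the 76 lower in wt, 65 lay below 0 and 10 passed, with a median of -0.27. Over all 4611 measured genes, 2410 lay above 0 in clr3-CDx2. Since the genes were chosen by their values in wt, smaller values in the other pair are partly fixed by the choice.

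Single genes differed in how far they carried over. fba1 stood at 0.12 in clr3-CDx2 ON and -1.05 in clr3-CDx2 OFF (difference 1.17, SD 0.55), and SPAC869.01 at -0.83 in clr3-CDx2 ON and 0.25 in clr3-CDx2 OFF (-1.08). By contrast erd2, the HDEL receptor gene, differed by 1.05 in wt and by 0.10 in clr3-CDx2, and gid2 by -1.15 in wt and -0.08 in clr3-CDx2. At both genes the OFF arrays also differed. The level of erd2 was 0.42 in clr3-CDx2 ON and 0.32 in clr3-CDx2 OFF, against -0.40 in wt OFF. That of gid2 was -0.69 in clr3-CDx2 ON and -0.62 in clr3-CDx2 OFF, against 0.04 in wt OFF. The zone from 75 to 150 kb was higher in clr3-CDx2 ON at all 8 stretches too, and 11 of the 14 stretches of the inner zone were lower. For the wtf genes the sides did not match: 13 of 15 lay above 0 in clr3-CDx2 (median 0.06).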

How the data were processed

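H3-T7 ChIP DNA (Cy5) and input DNA (Cy3) were measured on 1 array for each of the 4 groups, per the labels. The authors used Agilent Feature Extraction, version 12.0.3.1 per the file headers. Each deposited scanner file gives intensity per spot and channel; the processed signal is corrected for background and scaled between dyes, with Cy3 detrended on every array and Cy5 on the OFF arrays only, per the file headers. The deposited value table holds log2 of Cy5 over Cy3 without centring. It matched the scanner files on 100% of probes. Flag columns of 0 and 1 served as filters.

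Of 42968 spots, 1417 controls and 531 with an outlier flag in any scan were dropped. The log2 ratios were centred on each array's median. No source used here names the build of the array, so genes of ASM294v3 (RefSeq) were placed arm by arm where the input followed GC content best (r = 0.244 to 0.307, against at most 0.033 elsewhere). As a check, the level dipped at tRNA genes in all 6 arms. Gene means, domain runs (at least 5 probes, gaps up to 900 bp) and regions were computed in Python 3.11.15 with pandas 2.3.3, and normexp (offset 50) in limma 3.58.1. The gene and domain steps were run on simulated data with independent noise at each probe and planted 2-fold changes. Real neighbouring probes share fragments, so the simulation cannot show how often such runs arise without a change.

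Single arrays allow no test, and their number limits the precision. Members, lists and thresholds were chosen with earlier results of these data known. Named genes are the 20 largest differences per direction with 80% or more of probes agreeing in sign, genes under the 10 strongest domains per direction, and list members. The alternatives tried were normexp, no detrending, equal MAD, no centring, probes without suffix, Cy5 alone, other probe minimums, medians, 2-fold and no placement offset. Subtraction by GC class was added after seeing the data.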

Additional observations from a re-analysis of the deposited data

Results flagged for a closer look

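The wt pair and the clr3-CDx2 pair were set side by side for 99 items: the named genes, list members and regions past 1.5-fold in wt, and the 10 strongest domains per direction. In 5 of them the pairs lay on opposite sides of 0; genes, domains and regions outside that selection were not counted, and some of those also lay on opposite sides. These differences between genotypes were not tested, since each pair is 1 array against 1 array. The gene pdc102 differed by -0.93 in wt and 0.10 in clr3-CDx2, and the domain assigned to it by -0.99 and 0.12. Its level was low on both clr3-CDx2 arrays, at -0.53 in ON and -0.63 in OFF, against 0.06 in wt OFF. The neighbour of pdc102, SPAC186.08C, differed by -0.78 in wt and 0.35 in clr3-CDx2. Both genes lie in the stretch 20 to 30 kb from the right end of chromosome I, which averaged -0.75 in wt and 0.06 in clr3-CDx2. The phosphate transporter gene pho842 differed by 0.96 in wt and -0.04 in clr3-CDx2.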

How the results depend on the processing

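No paired analysis was possible because each group is 1 array. All 40 named genes kept their side of 0 under normexp (run on pixel medians, since no mean signals were used here), without detrending, with equal MAD, without centring, with Cy5 alone and with medians of probes, as did the 18 higher and 13 lower ones still measured on probes without suffix. Since these 40 genes have the largest differences on the same arrays, a change of side was unlikely from the start. Under normexp 17 of the 20 higher and 19 of the 20 lower stayed past 1.5-fold. On Cy5 alone 16 and 12 did. No named gene, list member, region or list past 1.5-fold changed sign in the settings where it was read. Other genes past 1.5-fold were not followed one by one, and signs of single genes were not read without placement offsets. The number of genes depended on the setting. With normexp 268 genes were higher and 205 lower, 255 and 154 of them on the same side in clr3-CDx2, with 278 higher and 148 lower domains. With Cy5 alone there were 57 higher and 40 lower genes (50 and 32 on the same side) and 31 lower domains. With at least 5 probes per gene there were 69 and 39 (67 and 34 on the same side). At 2-fold there were 15 and 5 genes (15 and 5 on the same side) and 21 and 7 domains. Runs of at least 10 probes left 37 higher and 12 lower domains. After subtraction by GC class 79 genes were higher, 62 of them among the 110, and 57 lower, 45 of them among the 76, with 70 and 48 on the same side in clr3-CDx2. Without placement offsets 124 genes were higher and 61 lower, and 45 and 26 of these were called with them. The difference over all centromeres was 0.34; it was 0.70 with equal MAD, 0.55 with Cy5 alone, 0.21 on probes without suffix and 0.13 with normexp. On Cy5 alone the medians were 0.33 for glycolysis (against 0.57), 0.12 for heat shock (against 0.27), 0.17 for elongation (against 0.54), -0.11 for thiamine (against 0.35) and -0.14 for Tf2 (against -0.63), and the left end of III differed by 0.72 (against 1.15). The cause of these shifts was not tested.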
